A study of Triticum aestivum and Aegilops tauschii and Triticum carthlicum with 18 samples.

Results

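Transcripts that were below the detection level in leaves of the tetraploid wheat TTH01, and clearly present in the other tetraploid TTR04 and in the diploid TQ27, were followed in the synthetic allohexaploid line Allo-AT9, which has TTH01 and TQ27 as its parents. A probe set (the group of short oligonucleotides that reads 1 transcript on the array) belonged to this set when both TTH01 arrays were under the detection level, a log2 value of about 4.5, and all 4 arrays of TTR04 and TQ27 were at 6 or above. Of 61115 probe sets that are not array controls, 11 met the rule. The set was thus selected on the values of these 6 parental arrays, so parental levels and any difference from a parent are given here as descriptions, without a test. None of the 11 probe sets has a gene symbol in the array annotation used here, and they are named by their probe set names, with the first dot replaced by the sign _.

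The data come from 18 Affymetrix wheat genome arrays of leaf RNA in 9 groups of 2 arrays. Allo-AT9 is the colchicine-doubled cross of TTH01 (Triticum turgidum ssp. carthlicum) with TQ27 (Aegilops tauschii), sampled in the selfed generations S5 and S4. Allo-AT5, also sampled at S5 and S4, is the doubled cross of TTR04 (T. turgidum ssp. durum) with the same TQ27 as pollen parent. MPV9 and MPV5 are mixtures of 2 parts of tetraploid RNA and 1 part of diploid RNA, from TTH01 and TQ27 for MPV9 and from TTR04 and TQ27 for MPV5, and they stand for the mid-parent value. The remaining groups are the parents TTH01, TTR04 and TQ27 themselves. RNA came from leaf 2 at the stage of 3 leaves, from plants grown under 12 h of light at 22 °C, with nights at 20 °C, and each replicate pooled 10 plants. Only plants whose chromosomes were intact by in situ hybridization were used in the lines, and each line descends from 1 combination of parents, so effects of the line, the cross and the tetraploid subspecies cannot be told apart. Arrays were comparable in scale, with medians of 4.00 to 4.11, and 29667 probe sets reached the detection level on both arrays of at least 1 group. The leaf genes rbcl, petC, OEE1 and OEE2, which encode photosynthetic proteins, were measured at 14.13 to 14.45, 12.05 to 13.12, 11.94 to 13.44 and 11.77 to 13.15 by their brightest probe sets.

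Hexaploid bread wheat carries A, B and D genomes, the A and B genomes coming from a tetraploid wheat and the D genome from Ae. tauschii. Most wheat genes therefore exist as homoeologs, related copies in each of the genomes, and a transcript that one tetraploid does not supply can still be supplied by the D genome copy after hybridization. Wheat array probes usually read several homoeologs together, since the copies are close in sequence. A low value in TTH01 can come from less transcript or from a TTH01 sequence that binds the probes poorly, and these cannot be told apart here. In pooled leaf tissue, fewer cells that use a gene and less RNA per cell cannot be told apart either.

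In TTH01, the 11 probe sets lay between 2.07 and 4.30 on the log2 scale. The arrays of TTR04 and TQ27 lay between 6.31 and 10.29. TTH01 was below TTR04 by a median difference of -4.31 (range -6.51 to -2.31) and below TQ27 by a median difference of -5.81 (range -7.39 to -2.53). TTR04 in turn was below TQ27 in 10 of 11 probe sets, with a median difference of -0.99. At the edge of the rule, Ta_1463.1.A1_at was just inside on both limits, with a highest TTH01 value of 4.30 and a lowest value of 6.31 in TTR04 and TQ27. Just outside were TaAffx_108690.1.S1_at, with a TTH01 value of 4.57, and TaAffx_17140.1.S1_at, with a lowest TTR04 or TQ27 value of 5.97. The widest gap between the highest TTH01 array and the lowest array of the other parents was 5.64, the narrowest 2.01 and the median 3.57.

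All 11 probe sets reached the detection level on every one of the 4 Allo-AT9 arrays. All 11 did so as well in MPV9, in Allo-AT5 at S5 and S4, and in MPV5. Detection in both Allo-AT9 generations was frequent for any probe set with this parental pattern: of the 961 probe sets below the detection level in TTH01 and at 6 or above in TQ27, whatever their level in TTR04, 698 (72.6%) were detected in both, with 77% in S5 and 78.4% in S4 taken singly. In MPV9 79.6% of the 961 were detected, in Allo-AT5 86.4% at S5 and 79.9% at S4, and in MPV5 87.5%. Only 55 of the 961 (5.72%) were detected in TTR04, whereas all 11 were by the rule. For Allo-AT5 and MPV5, which have TTR04 as a parent, the 961 are thus not a like reference. Among the 722 of the 961 whose TQ27 level was no lower than the lowest of the 11, 600 (83.1%) were detected in both Allo-AT9 generations. Across all probe sets, 40% were detected in Allo-AT9 S5 and 40.1% in Allo-AT9 S4. The 11 of 11 is thus to be read against a share of 72.6% to 83.1%, not against 40%. The margin over the detection level was wide for most. The mean of the 4 Allo-AT9 arrays was 0.16 to 4.25 above it, with a median of 1.80. The lowest Allo-AT9 array of each probe set was nearer to it, at 4.57 to 8.51, with a median of 6.10. Ta_1463.1.A1_at had the smallest margin by both measures, and its lowest array lay only just above the level. After cyclic loess normalization of the values, 10 of the 11 reached the level in S5 and 11 in S4.

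The level in Allo-AT9 stood above TTH01 and below TQ27 in each of the 11. The mean of the 4 Allo-AT9 arrays exceeded the TTH01 mean by 0.61 to 5.63 log2 units, with a median of 3.75. Relative to TQ27, it differed by -1.60 at the median, with a range of -3.49 (Ta_9338.1.S1_at) to -1.08 (Ta_21307.1.S1_x_at). MPV9 differed from TQ27 by -1.66 at the median, and Allo-AT5 by -0.66. The levels on each array are plotted for all 11.

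**Figure D1:**
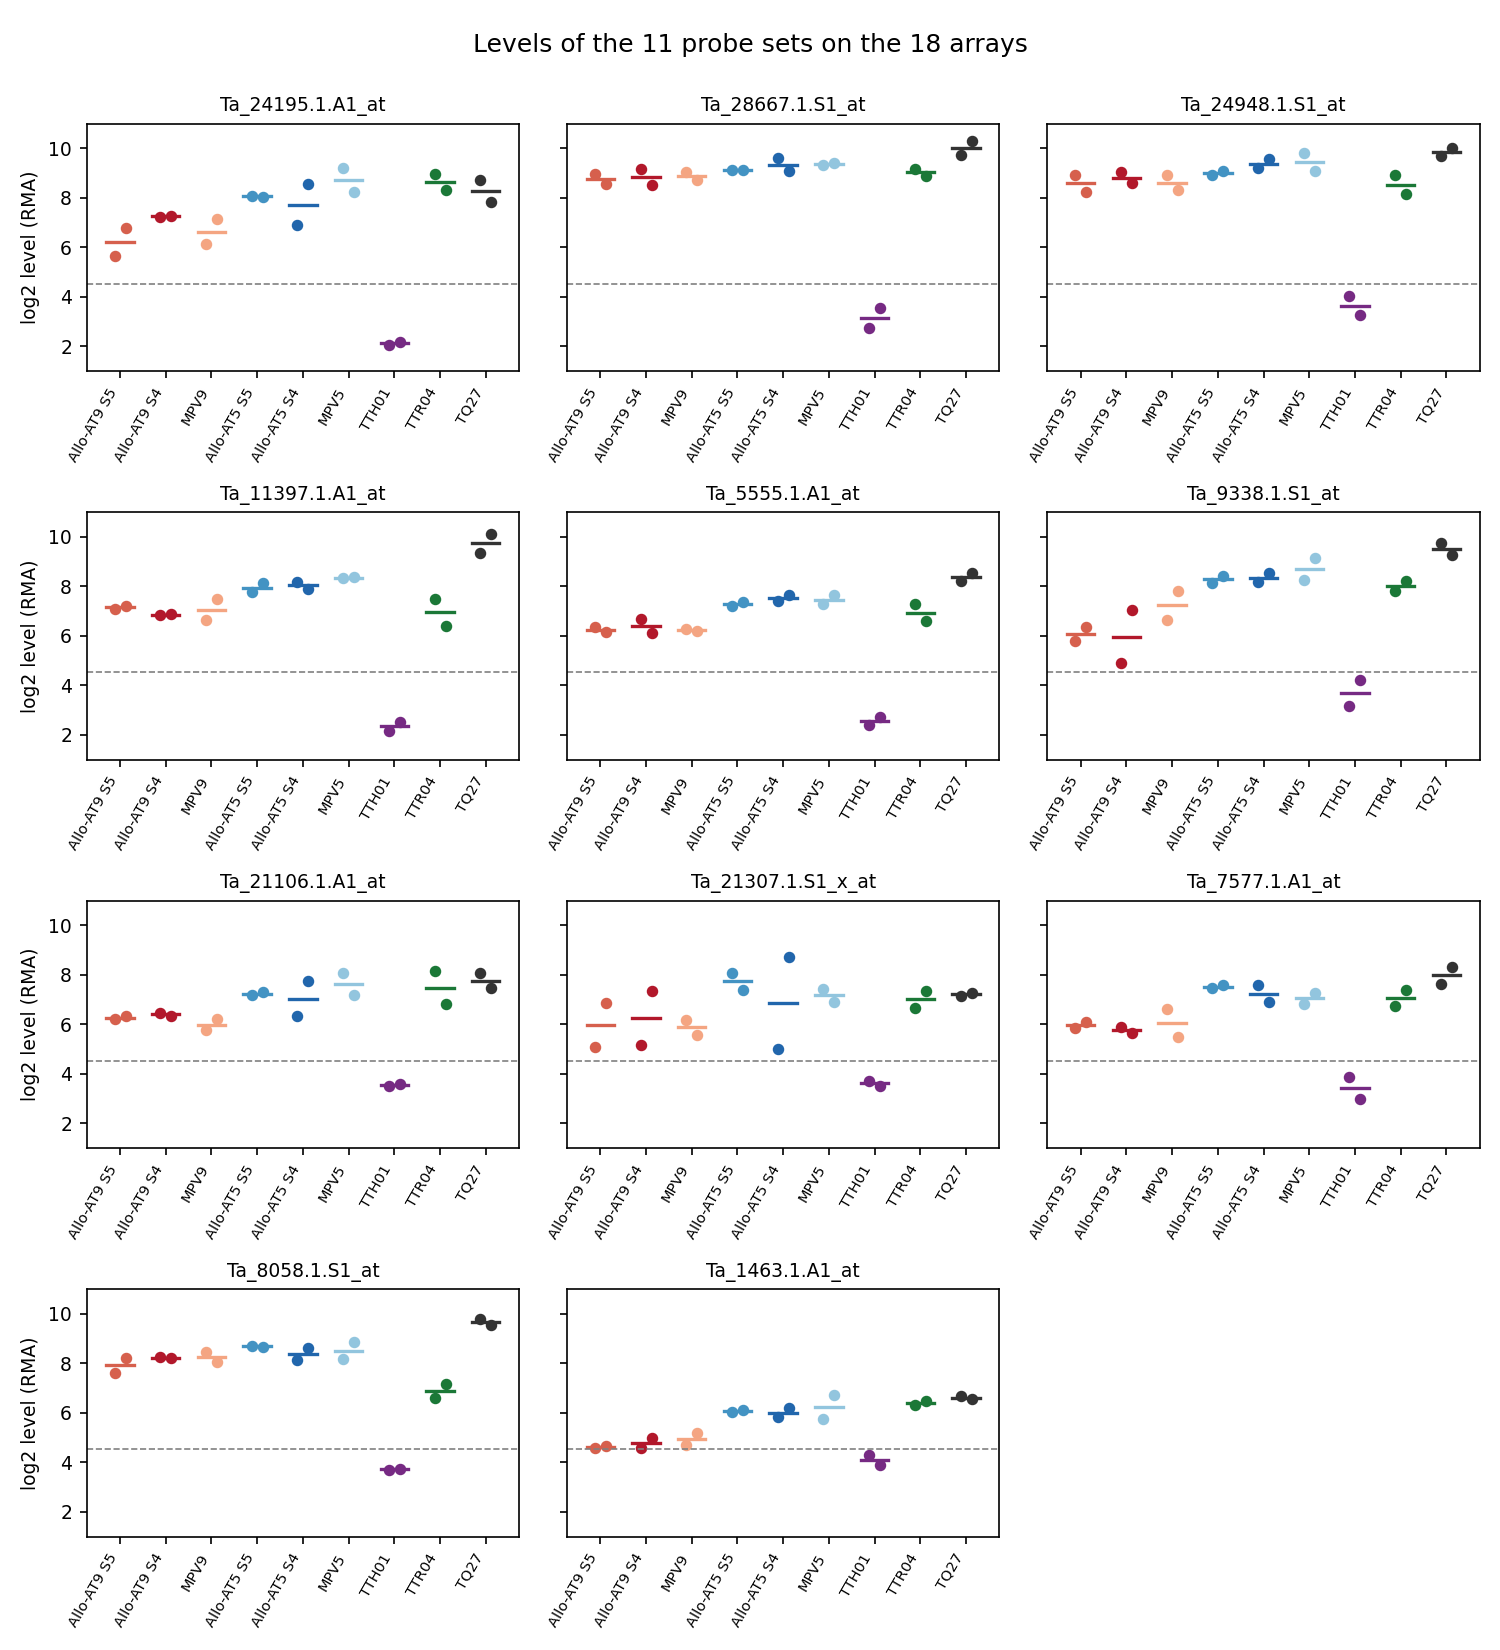
Log2 level (RMA) of each of the 11 probe sets in the 9 groups; points are the 2 arrays of a group, bars their mean, and the dashed line the detection level. The TTH01 arrays lie between 2.07 and 4.30, under the line in every panel, and all Allo-AT9 arrays lie above it, those of Ta_1463.1.A1_at by the least.

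Ta_24195.1.A1_at had the widest parental gap. It measured 5.66 and 6.77 in Allo-AT9 S5 and 7.21 and 7.28 in Allo-AT9 S4, against 6.14 and 7.14 in MPV9. In the other family it measured 8.07 and 8.05 in Allo-AT5 S5 and 6.90 and 8.55 in Allo-AT5 S4, against 9.21 and 8.24 in MPV5. The parents gave 2.07 and 2.19 in TTH01, 8.94 and 8.33 in TTR04 and 8.73 and 7.83 in TQ27. All TTH01-derived arrays other than TTH01 itself were thus far above the TTH01 level, and the Allo-AT9 and Allo-AT5 arrays overlapped at S4 but not at S5.

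Ta_28667.1.S1_at and Ta_24948.1.S1_at had the widest differences of Allo-AT9 from TTH01, 5.63 and 5.06. Ta_28667.1.S1_at measured 8.95 and 8.54 in Allo-AT9 S5, 9.15 and 8.51 in Allo-AT9 S4 and 9.05 and 8.72 in MPV9, while the TTH01 arrays gave 2.76 and 3.56 and the TQ27 arrays 9.74 and 10.29. Ta_24948.1.S1_at measured 8.94 and 8.25 in Allo-AT9 S5, 9.03 and 8.61 in Allo-AT9 S4 and 8.91 and 8.32 in MPV9, while the TTH01 arrays gave 4.04 and 3.26 and the TQ27 arrays 9.69 and 10.03. For both probe sets the Allo-AT9 arrays overlapped those of MPV9 and were below both TQ27 arrays.

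Ta_9338.1.S1_at stood apart from the other 10 in Allo-AT9. It measured 5.80 and 6.34 in Allo-AT9 S5 and 4.89 and 7.02 in Allo-AT9 S4, against 6.63 and 7.83 in MPV9. Allo-AT5 gave 8.14 and 8.41 at S5 and 8.16 and 8.54 at S4, against 8.25 and 9.14 in MPV5. TTH01 gave 3.17 and 4.23, TTR04 7.80 and 8.20, and TQ27 9.76 and 9.25. Every Allo-AT9 array was below every Allo-AT5 array, the S5 arrays were also below both MPV9 arrays, and the S4 arrays differed from each other by 2.13, more than for any other member in that group except Ta_21307.1.S1_x_at, which differed by 2.19.

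Ta_1463.1.A1_at lay nearest to the detection level in Allo-AT9. Its values were 4.57 and 4.68 in Allo-AT9 S5, 4.57 and 4.99 in Allo-AT9 S4 and 4.72 and 5.19 in MPV9. The mean of its Allo-AT9 arrays was 0.16 above that level. The lower array of each Allo-AT9 generation, at 4.57, lay only just above it. Allo-AT5 measured 6.04 and 6.12 at S5 and 5.81 and 6.18 at S4, and MPV5 5.75 and 6.74. The parents gave 4.30 and 3.88 in TTH01, 6.31 and 6.49 in TTR04 and 6.68 and 6.55 in TQ27. Allo-AT9 and MPV9 thus lay near TTH01 for this probe set, and Allo-AT5 and MPV5 near TTR04 and TQ27.

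Ta_5555.1.A1_at had little spread between replicates. It measured 6.35 and 6.15 in Allo-AT9 S5, 6.68 and 6.10 in Allo-AT9 S4 and 6.27 and 6.19 in MPV9. In Allo-AT5 it measured 7.19 and 7.38 at S5 and 7.39 and 7.66 at S4, and in MPV5 7.28 and 7.65. TTH01 gave 2.40 and 2.73, TTR04 7.29 and 6.58, and TQ27 8.20 and 8.54. The TTH01-derived and TTR04-derived lines and mixtures did not overlap.

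Ta_7577.1.A1_at showed the same separation of lines. Its values were 5.84 and 6.10 in Allo-AT9 S5 and 5.91 and 5.67 in Allo-AT9 S4, with 6.62 and 5.49 in MPV9. Allo-AT5 gave 7.46 and 7.58 at S5 and 7.59 and 6.89 at S4, with 6.83 and 7.28 in MPV5. TTH01 gave 3.87 and 2.99, TTR04 6.75 and 7.39, and TQ27 7.62 and 8.32. All 4 Allo-AT9 arrays were below all 4 Allo-AT5 arrays.

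Ta_11397.1.A1_at measured 7.09 and 7.21 in Allo-AT9 S5, 6.83 and 6.89 in Allo-AT9 S4 and 6.64 and 7.48 in MPV9, and Allo-AT5 gave 7.79 and 8.12 at S5 and 8.19 and 7.90 at S4. Its TQ27 arrays, at 9.34 and 10.12, were far above those of TTR04, at 7.49 and 6.40, and of TTH01, at 2.15 and 2.53. Ta_8058.1.S1_at was also much brighter in TQ27 than in TTR04, with 6.59 and 7.16 in TTR04 and 9.78 and 9.56 in TQ27. Its Allo-AT9 values, 7.59 and 8.23 at S5 and 8.24 and 8.22 at S4, were above both TTR04 arrays, and were nearer to those of Allo-AT5, 8.71 and 8.66 at S5 and 8.12 and 8.63 at S4, than in most of the set.

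Ta_21106.1.A1_at was tightly reproduced in Allo-AT9, at 6.22 and 6.32 in S5 and 6.44 and 6.36 in S4, against 5.77 and 6.22 in MPV9. Ta_21307.1.S1_x_at was the least reproducible. It measured 5.08 and 6.88 in Allo-AT9 S5, 5.17 and 7.36 in Allo-AT9 S4, 8.08 and 7.41 in Allo-AT5 S5 and 4.99 and 8.73 in Allo-AT5 S4, so its replicates differed by up to 3.74. The ending _x_at marks a probe set with probes that may also bind other sequences; 1 of the 11 has it, against 11.1% of all probe sets.

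The comparison of Allo-AT9 with MPV9 asks whether these transcripts depart in the allohexaploid from the simple sum of its parents. All 11 passed the filter on low values in every comparison. No member was called different at an adjusted p under 0.05 by limma with Benjamini-Hochberg adjustment over all probe sets: 0 of 11 in S5, where 0.179% of all tested probe sets were called, and 0 of 11 in S4, where 0.191% were. At an unadjusted p under 0.05 the count was also 0 in both generations, against 3.09% of all tested probe sets in S5 and 2.51% in S4. Differences in S5 ranged from -1.16 (Ta_9338.1.S1_at) to 0.28, with a median of -0.08, against 0.03 over all tested probe sets. In S4 they ranged from -1.27 (Ta_9338.1.S1_at) to 0.61 (Ta_24195.1.A1_at), with a median of -0.02, against 0.02 over all tested probe sets. Both extremes in S4 rested on single arrays: Ta_9338.1.S1_at was at -0.21 without Allo-AT9 S4 replicate 1 and at -2.34 without replicate 2, and Ta_24195.1.A1_at at 0.11 without MPV9 replicate 1 and at 1.11 without replicate 2. For Ta_9338.1.S1_at in S5, the value ran from -1.76 without MPV9 replicate 1 to -0.56 without MPV9 replicate 2. In each generation 10 of the 11 differences were within 1 log2 unit of 0, but the 95% intervals of single probe sets reached from 0.59 to 2.18 log2 units to either side, so moderate departures could not have been seen with 2 arrays per group.

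Without a call, a few members had no overlap between the arrays. Both Allo-AT9 S5 arrays were below both MPV9 arrays for Ta_9338.1.S1_at and Ta_1463.1.A1_at (2 of 11, against 12.6% of all tested probe sets). Both were above for Ta_21106.1.A1_at alone (1 of 11, against 13.6%). At S4, both Allo-AT9 arrays were above both MPV9 arrays for Ta_21106.1.A1_at and Ta_24195.1.A1_at (2 of 11, against 14.2%), and no member was below (12.1%). With the generations averaged, a contrast added after the values had been seen, 0 of 11 were called (0.23% of all). Ta_9338.1.S1_at was the member farthest from 0 there, at -1.22 (SE 0.54, 95% interval -2.39 to -0.05, unadjusted p = 0.0428, adjusted p = 1 by limma), and its 4 Allo-AT9 arrays, 4.89 to 7.02, overlapped the MPV9 arrays.

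**Figure D2:**
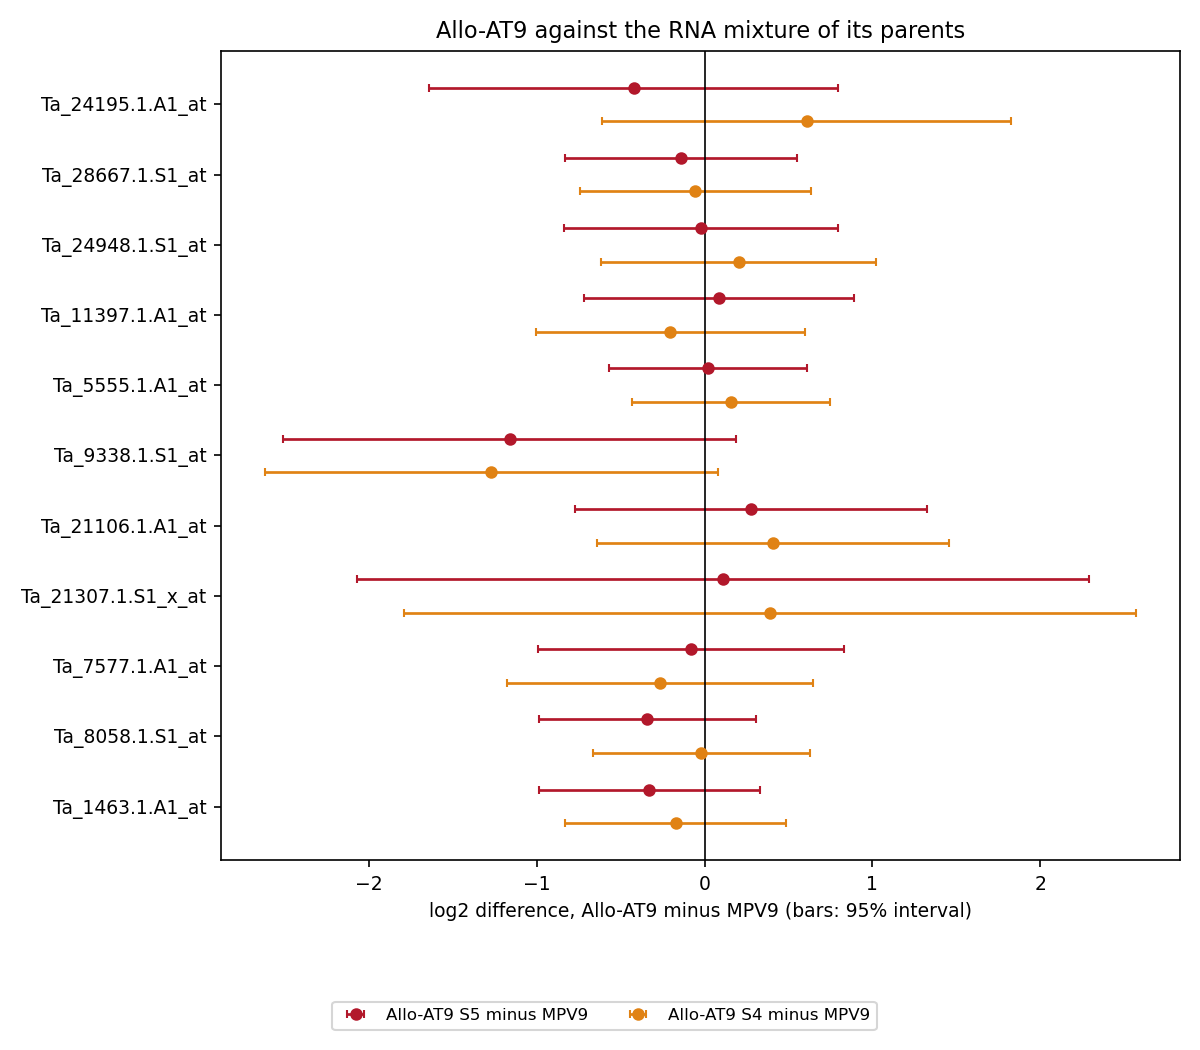
Log2 difference of Allo-AT9 from MPV9 for the 11 probe sets, in S5 and S4, with the 95% interval of the limma fit as bars (2 arrays per group). All intervals span 0, and Ta_9338.1.S1_at lies farthest below it, at -1.16 in S5 and -1.27 in S4.

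A 2 to 1 mixture was also calculated from the parental levels on the linear scale, as a description that rests on the arrays of the rule. Allo-AT9 differed from this calculation by a median of -0.06, with a range of -1.96 to 0.39. MPV9 differed from it by a median of -0.33, with a range of -1.10 to 0.43. The lowest value for Allo-AT9 belonged to Ta_9338.1.S1_at and the lowest for MPV9 to Ta_11397.1.A1_at. For the TTR04 family, Allo-AT5 differed from its own calculation by a median of -0.21, with a range of -0.63 to 0.22, and MPV5 by a median of 0.01, with a range of -0.38 to 0.34.

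**Figure D3:**
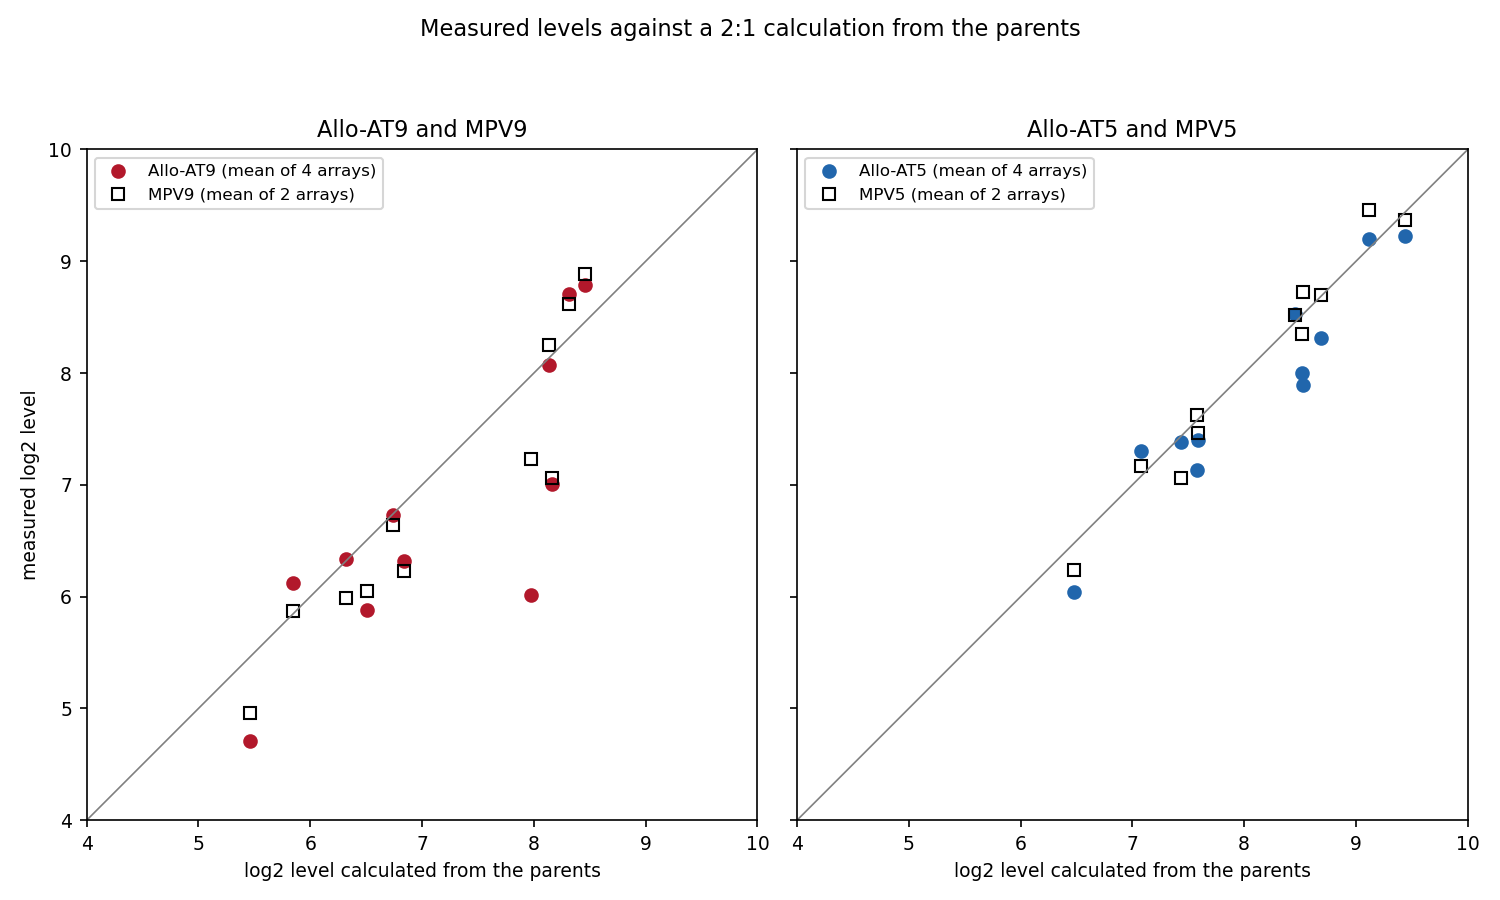
Measured log2 level against the level calculated from 2 parts of the tetraploid and 1 part of TQ27, for Allo-AT9 (filled) and MPV9 (open) on the left and Allo-AT5 (filled) and MPV5 (open) on the right; each symbol is 1 probe set and the line marks equality. The Allo-AT9 symbol farthest under the line is Ta_9338.1.S1_at, at -1.96 log2 units from it.

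Allo-AT9 and Allo-AT5 share TQ27 and differ in the tetraploid parent, so their comparison asks whether the low level in TTH01 remains visible beside the D genome. The rule chose probe sets lower in TTH01 than in TTR04. A sum of the parental levels would thus already place Allo-AT9 below Allo-AT5 for this set. Shares of all tested probe sets, which were not so chosen, are given for the line comparisons here and below for scale only. All 11 differences were below 0 in both generations, against 45% of all tested probe sets in S5 and 48.9% in S4. In S5 the median was -1.04 and the range -2.21 (Ta_9338.1.S1_at) to -0.36, against a median of 0.04 over all tested probe sets. In S4 the median was -0.64 and the range -2.39 (Ta_9338.1.S1_at) to -0.14 (Ta_8058.1.S1_at), against 0.01 over all tested probe sets. In S4 the sign depended on single arrays for some members: without Allo-AT5 S4 replicate 2, Ta_24195.1.A1_at was at 0.34, Ta_21106.1.A1_at at 0.08, Ta_21307.1.S1_x_at at 1.28 and Ta_8058.1.S1_at at 0.11, and without Allo-AT9 S4 replicate 1, Ta_21307.1.S1_x_at was at 0.50. In S5 no member changed sign with an array left out. Both Allo-AT9 arrays were below both Allo-AT5 arrays for 10 of 11 in S5 (19.6% of all tested probe sets) and for 6 of 11 in S4 (17.7%).

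Within a single generation none of these differences passed the adjusted threshold of limma: 0 of 11 in S5, where 1.49% of all tested probe sets were called (0.642% lower in Allo-AT9), and 0 of 11 in S4, where 1.63% were called (0.696% lower). The smallest adjusted p was 0.055 in S5 for Ta_1463.1.A1_at (-1.46, SE 0.30) and 0.12 in S4 for Ta_5555.1.A1_at (-1.13, SE 0.27). At an unadjusted p under 0.05, 6 members were lower in S5 (2.83% of all) and 5 in S4 (4.33%). With the spike-in band described further on as a block in the model, 1 member was called in each generation, Ta_1463.1.A1_at in S5 (-1.31, adjusted p = 0.0468, limma) and Ta_9338.1.S1_at in S4 (-2.39, adjusted p = 0.0049, limma). With that block, 1.72% of all tested probe sets were called in S5 and 2.09% in S4.

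With the generations averaged, 4 of 11 members fell in Allo-AT9 relative to Allo-AT5, against 1.32% of all tested probe sets called lower and 2.89% called in either direction. This contrast of 4 arrays with 4 was also added after the values had been seen. Ta_9338.1.S1_at fell by 2.30 log2 units (SE 0.44, adjusted p = 0.0177, limma), the furthest of the 11. Ta_7577.1.A1_at fell by 1.50 (SE 0.30, adjusted p = 0.0216, limma), Ta_1463.1.A1_at by 1.33 (SE 0.21, adjusted p = 0.0050, limma) and Ta_5555.1.A1_at by 1.09 (SE 0.19, adjusted p = 0.0106, limma). For these probe sets and for Ta_11397.1.A1_at, all 4 Allo-AT9 arrays were below all 4 Allo-AT5 arrays (5 of 11, against 4.16% of all tested probe sets). Ta_11397.1.A1_at differed by -0.99 without passing the threshold (adjusted p = 0.115, limma), and the remaining 6 differed by -1.18 to -0.44 without passing it.

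The count of 4 depended on single arrays. Leaving out replicate 1 of Allo-AT9 S5, replicate 2 of Allo-AT9 S4 or replicate 1 of Allo-AT5 S5 gave 2 calls, and leaving out replicate 2 of Allo-AT5 S5 gave 1. Ta_1463.1.A1_at kept its call whichever of the 8 arrays was left out, with adjusted p values of 0.0106 to 0.0328 (limma). Ta_5555.1.A1_at lost it without Allo-AT9 S4 replicate 2 (adjusted p = 0.0509) and without Allo-AT5 S5 replicate 2 (adjusted p = 0.0649). Ta_9338.1.S1_at lost it without each of 4 arrays, Allo-AT9 S5 replicate 1, both Allo-AT5 S5 arrays and Allo-AT5 S4 replicate 2, with adjusted p values of 0.0650 to 0.0917. Ta_7577.1.A1_at kept it only without Allo-AT5 S4 replicate 2, where its adjusted p was 0.0272. In a fit of these groups alone the count was again 4, but Ta_9338.1.S1_at was not among them (adjusted p = 0.0537) and Ta_11397.1.A1_at was (adjusted p = 0.0145).

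The RNA mixtures gave the same comparison without hybridization or genome doubling. The rule chose probe sets lower in TTH01 than in TTR04, and the mixtures differ only in which of these tetraploids they hold. A lower MPV9 thus follows from the choice of the set. The shares of all tested probe sets, which were not so chosen, are given for scale only. MPV9 was below MPV5 in all 11 (49.2% of all tested probe sets), by -2.09 (Ta_24195.1.A1_at) to -0.26 (Ta_8058.1.S1_at), with a median of -1.29. Ta_8058.1.S1_at was at 0.09 without MPV5 replicate 2. No member was called (0 of 11, against 1.39% of all, 0.512% lower), and the smallest adjusted p was 0.084 (Ta_5555.1.A1_at, -1.23, SE 0.27, limma). At an unadjusted p under 0.05, 8 members were lower, against 3.53% of all. Both MPV9 arrays were below both MPV5 arrays for all members other than Ta_8058.1.S1_at (10 of 11, against 14.6%). The sources used here do not state whether the mixtures were made from the RNA hybridized to the parental arrays. Deviations of the replicates from their group means, over all probe sets, correlated at 0.74 between MPV9 and TTH01 and at 0.85 between MPV5 and TTR04, so the mixtures may not be independent of the arrays that chose the set. Groups without shared RNA also correlated, at 0.36 between MPV9 and TTR04 and 0.48 between Allo-AT9 S4 and TTH01. TQ27, also part of both mixtures, correlated at -0.25 with MPV9 and -0.16 with MPV5. What these correlations come from was not tested.

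**Figure D4:**
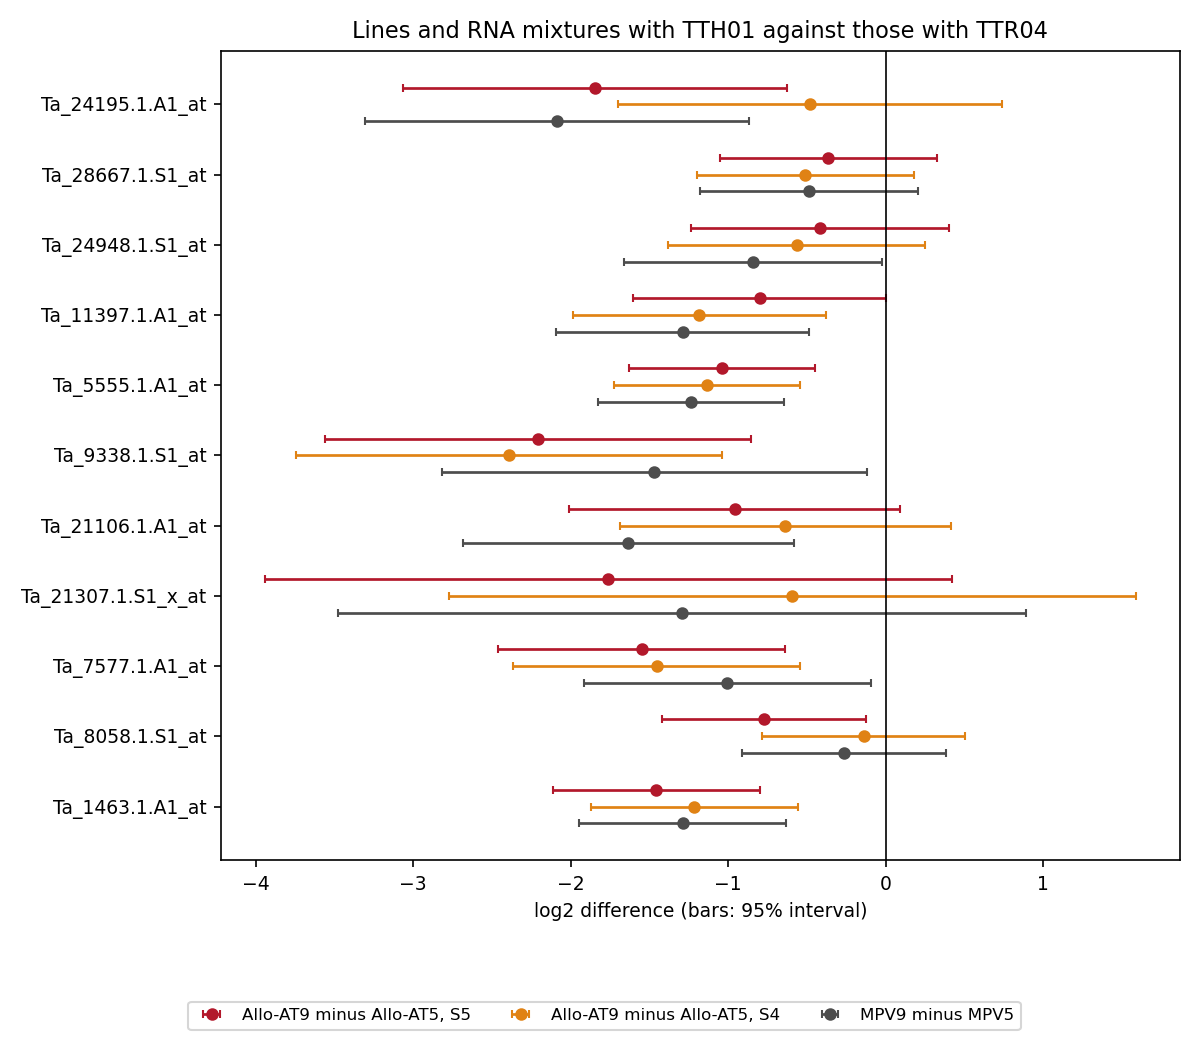
Log2 difference of Allo-AT9 from Allo-AT5 in S5 and S4, and of MPV9 from MPV5, for the 11 probe sets, with the 95% interval of the limma fit as bars (2 arrays per group). All points lie below 0, from -2.39 to -0.14.

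Set side by side, the 11 differences of the lines and of the mixtures were of like size for some members and unlike for others. Ta_5555.1.A1_at had -1.04 in S5 and -1.13 in S4 between the lines and -1.23 between the mixtures. Ta_24195.1.A1_at had -1.85 in S5 and -0.48 in S4 between the lines and -2.09 between the mixtures. Whether the 2 kinds of difference differ was tested as the departure of Allo-AT9 from MPV9 minus the departure of Allo-AT5 from MPV5. No member was called, in S5 (0 of 11, against 0.0661% of all tested probe sets) or in S4 (0 of 11, against 0.0782%). The values ran from -0.74 to 0.67 in S5 and from -0.92 to 1.61 (Ta_24195.1.A1_at, SE 0.79) in S4, with medians of 0.12 and 0.10.

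Between the Allo-AT9 generations, S5 differed from S4 by -1.03 (Ta_24195.1.A1_at) to 0.29, with a median of -0.14. No member was called (0 of 11; 0% of all tested probe sets were called, and at an unadjusted p under 0.05 it was 0 of 11 against 1.43%). In the TTR04 family, no member was called between Allo-AT5 and MPV5 in S5 (0.0115% of all) or in S4 (0% of all). The differences from MPV5 ran from -0.66 to 0.57 in S5 and from -0.996 to 0.18 in S4, and 0 members had an unadjusted p under 0.05, against 3.54% and 4.43% of all tested probe sets.

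Signals of a spiked-in control transcript, BioC, split the arrays into a band of 8 arrays at 8.77 to 9.66 and a band of 10 arrays at 5.67 to 7.28. Both Allo-AT5 S5 arrays were in the lower band, and the arrays of each other group were divided between the bands. What the bands stand for is not given in the sources used here. Allo-AT9 S5 minus Allo-AT5 S5 could be taken in the lower band only, where 11 of 11 were below 0 with a median of -0.91. Allo-AT9 S4 minus Allo-AT5 S4 was below 0 for 7 of 11 in the upper band (median -0.46) and 11 of 11 in the lower (median -1.22). MPV9 minus MPV5 was below 0 for 10 of 11 in the upper band (median -1.03) and 11 of 11 in the lower (median -1.10). Against MPV9, Allo-AT9 S5 was below 0 for 7 of 11 in each band (medians -0.14 and -0.07) and Allo-AT9 S4 for 5 of 11 in each (medians 0.10 and 0.14).

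The members were read beside other probe sets of the same UniGene cluster, the sequence cluster that the number in a probe set name stands for. Of the 11, 7 were the only probe set of their cluster, and 4 shared a cluster with 8 further probe sets, of which 2 were detected in TTH01. Both belong to the cluster of Ta_9338.1.S1_at. Ta_9338.2.S1_x_at measured 6.80 and 7.04 in Allo-AT9 S5, 6.84 and 7.43 in Allo-AT9 S4, 6.76 and 6.84 in TTH01, 6.95 and 7.04 in TTR04 and 7.46 and 7.33 in TQ27. Ta_9338.3.S1_x_at measured 6.29 and 6.22 in Allo-AT9 S5, 6.16 and 6.81 in Allo-AT9 S4, 5.15 and 5.80 in TTH01, 5.75 and 6.25 in TTR04 and 7.01 and 6.73 in TQ27. Ta_9338.3.S1_at was near or under the detection level in Allo-AT9, with 4.34 and 4.22 in S5 and 4.26 and 4.59 in S4, and measured 3.23 and 2.84 in TTH01, 4.02 and 2.98 in TTR04 and 5.76 and 5.60 in TQ27. In this cluster, low TTH01 values were thus not shared by all probe sets, and both probe sets detected there carry the _x_at ending. Group means at S5 and S4 were 6.92 and 7.13 in Allo-AT9 and 7.18 and 7.01 in Allo-AT5 for Ta_9338.2.S1_x_at. For Ta_9338.3.S1_x_at they were 6.26 and 6.48 against 6.04 and 6.14, and for Ta_9338.3.S1_at 4.28 and 4.43 against 4.05 and 3.69. The large difference between the lines in Ta_9338.1.S1_at was thus not seen in the other probe sets of its cluster.

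The cluster of Ta_24195.1.A1_at went the other way. Ta_24195.2.S1_at measured 6.12 and 6.28 in Allo-AT9 S5 and 6.62 and 6.91 in Allo-AT9 S4, against 5.57 and 5.89 in MPV9, with 4.01 and 4.19 in TTH01, 8.61 and 7.46 in TTR04 and 7.79 and 5.55 in TQ27. Ta_24195.3.S1_at measured 5.28 and 4.94 in Allo-AT9 S5 and 4.83 and 5.61 in Allo-AT9 S4, with 4.19 and 3.41 in TTH01, 6.32 and 5.17 in TTR04 and 6.81 and 6.01 in TQ27. All probe sets of this cluster were below the detection level in TTH01 and above it in Allo-AT9. In the cluster of Ta_8058.1.S1_at the TTH01 values were mixed. Ta_8058.2.S1_a_at had 6.23 and 6.86 in Allo-AT9 S5 and 6.98 and 6.91 in Allo-AT9 S4, with 4.07 and 4.97 in TTH01, 1 array on each side of the detection level, 5.86 and 5.32 in TTR04 and 8.74 and 8.82 in TQ27. Ta_8058.2.S1_x_at had 6.13 and 6.42 in Allo-AT9 S5 and 6.41 and 6.54 in Allo-AT9 S4, with 2.43 and 3.27 in TTH01, 4.60 and 4.69 in TTR04 and 7.90 and 7.86 in TQ27. Ta_21307.2.S1_x_at was under the detection level on all Allo-AT9 arrays, unlike the member, with 4.51 and 4.44 in S5 and 4.40 and 3.94 in S4. It measured 4.21 and 4.28 in MPV9 and 4.00 and 4.75 in TTH01. Above the level were TTR04, at 5.32 and 5.47, and TQ27, at 4.86 and 5.31. Allo-AT5 was above it as well, at 5.28 and 5.35 in S5 and 4.89 and 6.14 in S4, and MPV5 gave 4.32 and 5.12.

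**Figure D5:**
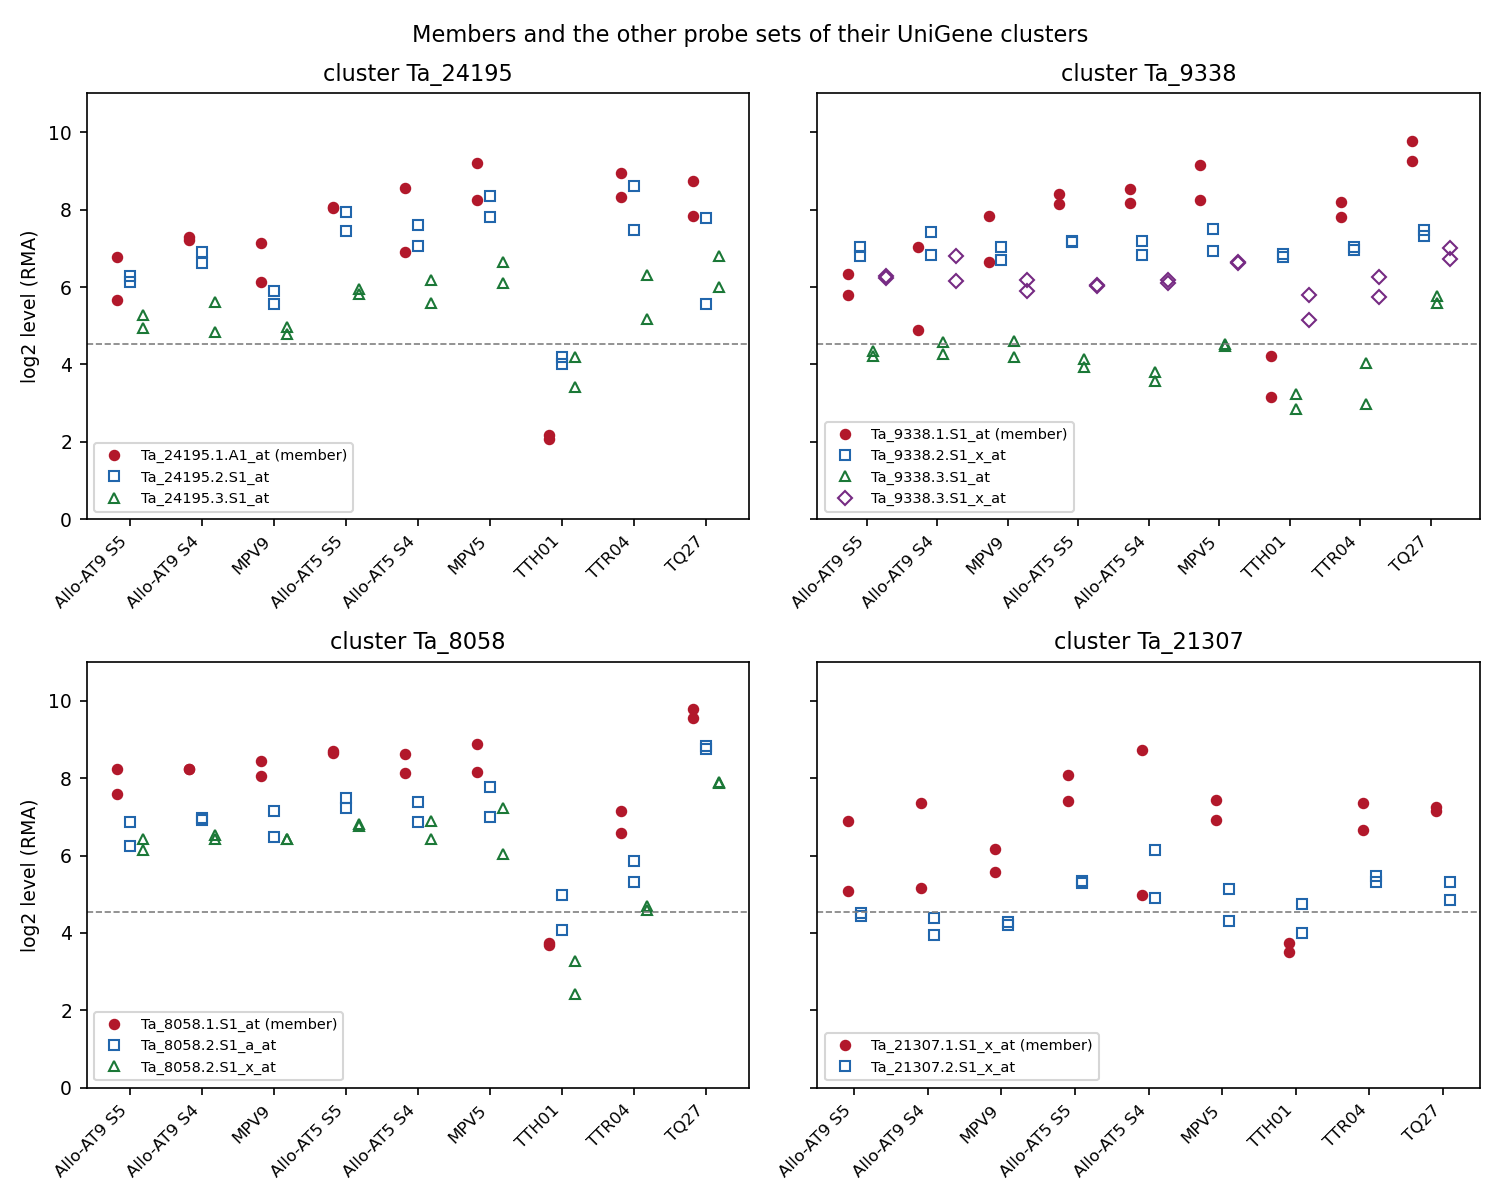
Log2 levels (RMA) in the 9 groups for the 4 members that share a UniGene cluster with other probe sets (filled circles) and for those probe sets (open symbols); each symbol is 1 array and the dashed line marks the detection level. In the cluster of Ta_9338.1.S1_at, the probe sets Ta_9338.2.S1_x_at (6.76 and 6.84) and Ta_9338.3.S1_x_at (5.15 and 5.80) are above the line in TTH01.

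The mirror image of the rule, with both TTR04 arrays under the detection level and all TTH01 and TQ27 arrays at 6 or above, found 20 probe sets. All 20 were detected in both generations of Allo-AT5, the line with TTR04 as a parent. There, Allo-AT5 differed from TQ27 by a median of -1.71 and from MPV5 by -0.37. For the 11 missing in TTH01, Allo-AT9 differed from TQ27 by a median of -1.60 and from MPV9 by -0.06. Allo-AT9 minus Allo-AT5 had a median of 0.83 over the 20, with Allo-AT5 the lower line in 16, and of -1.09 over the 11, with Allo-AT9 the lower line in 11. For the 789 probe sets that were under the detection level in both tetraploids and at 6 or above in TQ27, detection in both Allo-AT9 generations was reached by 562 (71.2%), and Allo-AT9 differed from TQ27 by a median of -1.83 and from MPV9 by 0.08. Over the same 789, Allo-AT5 differed from TQ27 by a median of -1.78 and from MPV5 by -0.30, near the -0.37 of the 20. These lists are set side by side as descriptions, and differences among them were not tested.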

How the data were processed

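The deposited values are log2 levels that the authors obtained from the raw arrays by RMA, and they were used unchanged. RMA, limma, MAS5 and GCOS are named in the submitters' notes or the methods without versions. The genome build and the authors' detection flags were not used here. Of 61290 probe sets, 175 array controls were set aside. Groups were compared with limma 3.58.1 in R 4.3.3, in 1 linear model of the 9 groups with empirical Bayes moderation (residual df 9, prior df 2.99), tested on simulated data first. Benjamini-Hochberg adjustment ran over 61115 probe sets. A probe set entered the counts of a comparison if both arrays of at least 1 group in it reached 4.54, and was called at an adjusted p under 0.05. Values of all tested probe sets stand beside those of the members. The labels describe the 2 arrays of a group as biological replicates, and their small number limits the precision. The mixture level was calculated from linear values as 2 parts tetraploid and 1 part diploid.

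Members and lists were chosen with earlier results of these data known. Had over 150 probe sets met the rule, the 150 with the widest gap would have been kept. Probe sets named were the members with a gene symbol, the 6 with the widest gap, the 6 highest and 6 lowest differences of Allo-AT9 from MPV9, and those with no detection in Allo-AT9, a call or a place at the edge of the rule, which covered all 11; other probe sets of their UniGene clusters were given as well. Alternatives were cyclic loess normalization, other detection and presence levels, no filter, unadjusted p, a fit of each comparison on its own groups, a block for replicate number or spike-in band, leaving out probe sets that may bind other sequences, and leaving out each array. Averaged generations, within-band values and a crossed pairing were added after the values were seen. Probe sequences were not used here.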

Additional observations from a re-analysis of the deposited data

How the results depend on the processing

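Of 1210 values of single members under alternatives, 0 changed sign where either setting called them, while 106 uncalled values changed sign, 14 lost a call and 13 gained one. The rule found 4 probe sets with TTR04 and TQ27 at 7 or above, and 13 after cyclic loess, which held all 11. Members detected at a level of 5 numbered 10 in Allo-AT9 S5 and 9 in Allo-AT9 S4, and after cyclic loess 10 in S5 and 11 in S4. For Allo-AT9 against Allo-AT5 in S5, where 0 members were called, 3 were called in a fit of those groups alone, and 1 each (Ta_1463.1.A1_at) after cyclic loess, with the replicate block and with the spike-in band block. In S4, where 0 were called, 1 (Ta_9338.1.S1_at) was called with the replicate block (adjusted p = 0.0321, limma) and with the spike-in band block (adjusted p = 0.0049, limma), and leaving out single arrays gave 0 to 1. MPV9 against MPV5, with 0 called, gave 1 after cyclic loess, 1 with the spike-in band block and 0 to 1 with single arrays left out. At an unadjusted p under 0.05 the counts were 6, 5 and 8 in these comparisons, 1 for Allo-AT9 against MPV9 averaged over generations, and 7 for Allo-AT9 against Allo-AT5 averaged, where 4 were called and leaving out single arrays gave 1 to 3. Of all tested probe sets, 6.86% in S5, 9.19% in S4 and 9.56% between the mixtures had an unadjusted p under 0.05. For the averaged contrasts the shares were 3.02% against MPV9 and 11.1% against Allo-AT5. With the replicate block, 1.67% of all were called between the lines in S5 and 1.83% in S4. With the spike-in band block it was 1.72% in S5, 2.09% in S4 and 1.82% between the mixtures. The causes of these changes in the counts of members were not tested. In the other comparisons the count of members called stayed at 0 under every alternative with an adjusted p.

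Replicate numbers are shared between groups, but the labels do not say that they pair samples. Same-numbered deviations correlated at 0.58 between Allo-AT9 S4 and MPV9 and at 0.02 between Allo-AT9 S4 and Allo-AT5 S4. For Allo-AT5 S5 and MPV5 the correlation was -0.15, and with the crossed pairing 0 members were called. The block changed no other count of members called.

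For a difference between groups of 2 arrays, the median standard error of the 11 members was 0.38 log2 units. Array levels carry no true zero, so a member under the detection level is not shown to be unexpressed.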
